A study of Mus musculus with 12 samples.

Results

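PRDM16 binding was compared with PRDM3 binding in fetal mouse lung epithelium. The comparison rests on 3 peak lists, 2 of PRDM16 and 1 of PRDM3, taken from a series of 12 samples of which 9 have peak lists. The 20000 peaks of chromosomes 1 to 19 with the highest deposited fold enrichment were taken from each list, so that every library entered with the same number of peaks. Stretches covered in both PRDM16 libraries, of at least 20 bases, numbered 10656 and are called PRDM16 regions. The 3 PRDM lists held 111489 and 79072 peaks for PRDM16 and 52283 for PRDM3 before that choice.

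All groups were epithelial cells from lungs of wild-type C57Bl6 mouse embryos at E17.5, selected from dissociated lung with beads against the surface protein EpCAM. Each reaction held 100000 cells. CUT&RUN, in which an antibody carries a nuclease to its target so that nearby chromatin is cut free and sequenced, was done for PRDM16 (2 libraries), PRDM3 (1 library), the lung transcription factor NKX2-1 (3 libraries) and the promoter mark H3K4me3 (3 libraries). Another 3 samples, 2 with rabbit IgG and 1 with sheep IgG, were not analysed here, and the peaks are shown with no background library beside them. PRDM16 replicate 1 and PRDM3 were made with rabbit antibodies and PRDM16 replicate 2 with a sheep antibody, so antibody, host and library cannot be told apart. Nothing in the labels says whether the libraries came from separate litters or pools, and the PRDM3 library has no replicate. The comparison of 2 libraries with 1 therefore carries no p-value, and a difference is read only against the gap between the PRDM16 libraries. EpCAM-selected cells carried H3K4me3 at 7 of 8 epithelial marker genes, against 1 of 4 mesenchymal, 1 of 3 endothelial, 0 of 3 immune or blood and 0 of 2 neuronal markers. These markers are few. In longer gene lists the mark stood at 22 of 22 genes of epithelial junctions and keratins, but at 1 of 15 airway secretory and 3 of 10 basal genes. It stood at 4 of 20 mesenchymal, 5 of 18 endothelial, 5 of 20 immune or blood and 3 of 18 neuronal genes. Over all promoter windows the share was 56.0%.

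PRDM16 and PRDM3, the product of the Mecom locus also known as EVI1, are paralogs. Each carries a PR domain, related to the SET domain of histone methyltransferases, and arrays of zinc fingers that contact DNA. Both recruit corepressors such as CtBP. PRDM16 is known for its part in brown fat and in stem cells, and PRDM3 for blood stem cells and leukaemia.

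Promoter sequences of 6 genes show what the sites of each kind look like. They came from 12 favoured genes per direction that passed a site check and 12 genes ranked best in all 3 libraries, described below. In each set they were the first in rank order whose RefSeq promoter window lay under peaks of that kind. The window (GRCm38.p6) ran from 250 bases before to 50 after an annotated start, read on the gene's strand. Capitals mark matches, on either strand, to any of 11 short motifs. These were GGGCGG for the GC box, CCAAT for the box of that name, CCGGAAG for ETS factors, TGCGCA for an NRF1-like site and CACGTG for the E-box. GATGGCG stood for a YY1-like site, TGACGTC for the CRE, TGANTCA for AP-1, GGAATGT for TEAD factors, AGATAAG for a GATA-like site and TCAAGTG for an NKX2-1-like site. The first pair had peaks in both PRDM16 libraries and none among the 20000 of PRDM3.
Fxr2 (chr11:69632721-69633020, plus strand): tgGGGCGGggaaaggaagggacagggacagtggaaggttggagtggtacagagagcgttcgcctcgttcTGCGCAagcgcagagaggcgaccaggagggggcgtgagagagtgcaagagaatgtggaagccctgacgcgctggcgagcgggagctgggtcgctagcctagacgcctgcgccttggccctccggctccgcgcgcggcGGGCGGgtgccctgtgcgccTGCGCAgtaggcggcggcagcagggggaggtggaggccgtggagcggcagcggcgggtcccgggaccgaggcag
Baz1b (chr5:135187073-135187372, plus strand): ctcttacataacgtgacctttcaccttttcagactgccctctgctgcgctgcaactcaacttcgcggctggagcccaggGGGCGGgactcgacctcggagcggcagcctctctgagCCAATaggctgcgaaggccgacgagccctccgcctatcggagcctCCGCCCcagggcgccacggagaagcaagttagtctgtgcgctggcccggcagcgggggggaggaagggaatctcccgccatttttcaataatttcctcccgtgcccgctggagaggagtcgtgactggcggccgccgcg
The next pair had a PRDM3 peak and none among the 20000 of either PRDM16 library.
Abca1 (chr4:53159846-53160145, minus strand): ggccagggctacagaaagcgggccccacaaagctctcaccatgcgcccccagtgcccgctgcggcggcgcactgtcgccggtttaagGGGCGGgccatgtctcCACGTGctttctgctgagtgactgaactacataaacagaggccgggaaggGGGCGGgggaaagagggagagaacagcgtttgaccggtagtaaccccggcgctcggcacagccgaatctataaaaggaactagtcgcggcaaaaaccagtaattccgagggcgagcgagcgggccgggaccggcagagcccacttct
Rps13 (chr7:116334141-116334440, minus strand): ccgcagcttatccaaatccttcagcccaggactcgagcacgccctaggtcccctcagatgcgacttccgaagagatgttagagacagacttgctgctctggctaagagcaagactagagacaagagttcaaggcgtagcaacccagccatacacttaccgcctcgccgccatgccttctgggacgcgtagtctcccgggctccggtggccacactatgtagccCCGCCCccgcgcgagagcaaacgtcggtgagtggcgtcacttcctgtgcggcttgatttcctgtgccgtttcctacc
The last pair lay under peaks of all 3 libraries.
Tnrc6b (chr15:80711063-80711362, plus strand): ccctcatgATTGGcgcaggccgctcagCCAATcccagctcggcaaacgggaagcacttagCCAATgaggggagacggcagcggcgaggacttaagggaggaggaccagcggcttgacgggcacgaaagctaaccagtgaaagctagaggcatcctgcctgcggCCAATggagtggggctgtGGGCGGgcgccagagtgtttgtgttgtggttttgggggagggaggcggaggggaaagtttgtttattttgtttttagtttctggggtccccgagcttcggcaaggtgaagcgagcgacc
Fbxl19 (chr7:127746028-127746327, plus strand): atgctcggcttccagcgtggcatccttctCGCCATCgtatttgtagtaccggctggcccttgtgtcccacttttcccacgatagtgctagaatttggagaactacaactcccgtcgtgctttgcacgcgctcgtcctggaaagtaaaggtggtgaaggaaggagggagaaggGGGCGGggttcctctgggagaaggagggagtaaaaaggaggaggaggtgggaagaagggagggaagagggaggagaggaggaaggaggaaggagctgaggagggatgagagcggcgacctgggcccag
All 6 windows held at least 1 GC box, and the Tnrc6b window held 4 CCAAT boxes. A GC box stood in 72.6% (Wilson 95% interval 70.3 to 74.9) of the 1422 promoter windows under both PRDM16 libraries without PRDM3. It stood in 75.1% of the 2988 windows under all 3 libraries. In the 570 windows under PRDM3 alone the share was 60% (55.9 to 63.9). Windows with H3K4me3 and none of the 3 PRDM lists had 62.2% (n = 2326), and all 20085 windows of 16457 genes had 47.0%. The shares had the same order as the median GC content of the windows. That content was 63.0% for PRDM16 without PRDM3, 63.7% for all 3 libraries, 60.3% for PRDM3 alone, 60.7% for H3K4me3 with none and 57% for all. The part of base composition in the shares was not tested. The GATA-like motif, of the kind that the first zinc fingers of EVI1 bind in vitro, was rare throughout. It stood in 1.34% of PRDM16 windows without PRDM3, 1.05% of windows under PRDM3 alone and 2.58% of all windows. The AP-1 motif stood in 4.43% of PRDM16 windows without PRDM3, in 6.67% (4.90 to 9.02) of windows under PRDM3 alone and in 7.06% of all windows. These matches describe letters in a window of 300 bases and do not show that a factor sits there. PRDM16 windows without PRDM3 needed peaks in 2 libraries and windows under PRDM3 alone in 1. The contrasts between these classes are therefore not on equal terms and cannot be read as differences between the proteins.

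The lists differ in strength at the same length. At rank 20000 the fold enrichment was 5.16 and 4.20 in PRDM16 replicates 1 and 2, against 3.73 in PRDM3. The first peak left out had the same value in every library, since 84 and 311 PRDM16 peaks and 29 PRDM3 peaks were tied there, and these were ordered by −log10 p. The weakest −log10 q among the 20000 was 4.29 and 2.57 in PRDM16, against 1.62 in PRDM3, so the lower PRDM3 ranks are less certain. Median peak width was 973 and 806 bases in PRDM16, against 530 in PRDM3.

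The share of PRDM16 regions with a PRDM3 peak depended on the list length and on the need for both PRDM16 libraries. Of the 10656 regions, 7135 overlapped the 20000 PRDM3 peaks by at least 1 base, or 67.0% (66.1 to 67.8). The intervals cover counting error over regions only. The share was 39.1% among peaks with −log10 q of at least 5, where the PRDM3 list is the shortest. It was 46.6% for peaks of PRDM16 replicate 2 alone and 52.1% for peaks of replicate 1 alone. Of the 10656 regions, 3521 did not overlap PRDM3's 20000, and 1604 of all regions (15.1%) had no peak in the whole PRDM3 list. In the opposite direction, 7293 of the 20000 PRDM3 peaks (36.5%, 35.8 to 37.1) lay over PRDM16 regions, 6030 lay over a peak of a PRDM16 library but no region, and 6677 (33.4%) lay over neither PRDM16 list. For 3103 PRDM3 peaks (15.5%) neither whole PRDM16 list had a peak. With PRDM16 replicate 2 alone in place of the regions, 48.1% of PRDM3 peaks overlapped it, and with replicate 1 alone 55.1% did.

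Many of the sites counted as lacking the other protein had a weaker peak of it. Of the 3521 PRDM16 regions without PRDM3, 1917 (54.4%) had a PRDM3 peak below rank 20000, and for 1144 (32.5%) its fold was within 1.25 times of the last value in the list. Of the 6677 PRDM3 peaks without PRDM16, 3030 (45.4%) had such a weaker peak in replicate 1 and 2110 (31.6%) in replicate 2. Its fold was within 1.25 times of the last value for 1278 (19.1%) and 975 (14.6%). Only 3103 of the 6677 had no peak in either whole PRDM16 list, and the rest had a weaker peak in at least 1 PRDM16 library.

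A PRDM16 library resembled the PRDM3 library about as much as it resembled the other PRDM16 library. At 20000 peaks, replicate 1 shared 53.6% of peaks with PRDM3 and replicate 2 shared 47.3%, as the mean of both directions. The PRDM16 libraries shared 52.3% with each other. The PRDM16 pair thus exceeded the mean of the PRDM16 and PRDM3 pairs by 1.82 percentage points, less than the SD of 4.45 between those 2 pairs. Among the 1000 highest peaks the order was different. There replicate 1 shared 27.6% with PRDM3 and replicate 2 shared 23.3%, against 12.3% between the PRDM16 libraries, a difference of −13.1 points. The strongest PRDM16 peaks of the rabbit and sheep antibodies were therefore less alike than either was to the strongest PRDM3 peaks.

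**Figure D1:**
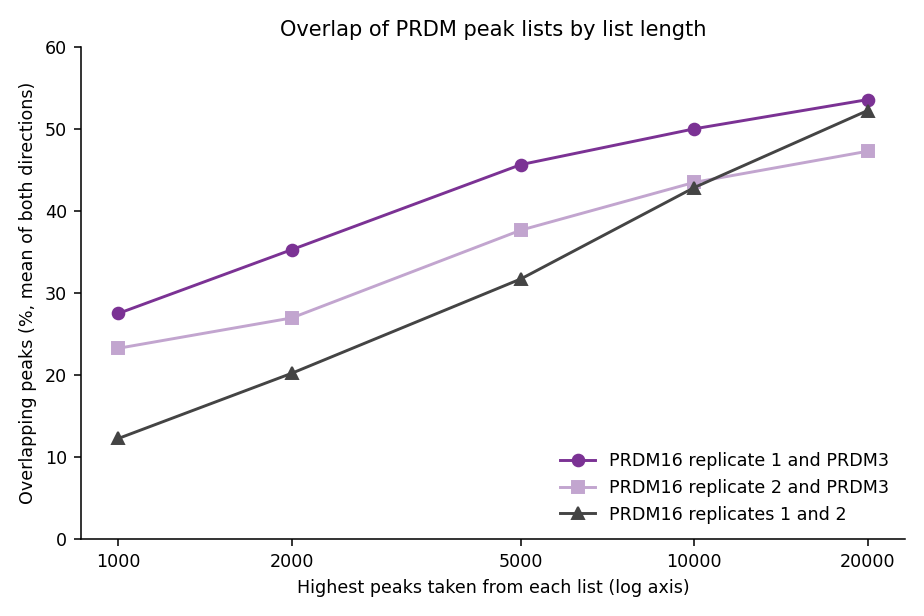
Share of overlapping peaks between each pair of PRDM lists (vertical axis, percent, mean of both directions) when the 1000 to 20000 highest peaks of each list are taken (horizontal axis, log scale). The PRDM16 pair (triangles) lies lowest up to 10000 peaks, and at 20000 it reaches 52.3%, between the 53.6% and 47.3% of the pairs with PRDM3.

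NKX2-1 gives a scale for these overlaps. At 20000 peaks NKX2-1 replicate 1 shared 60.7% with PRDM16 replicate 1 and 52.2% with replicate 2, against 53.1% with PRDM3. At this length both PRDM16 libraries overlapped this NKX2-1 list more than they overlapped PRDM3. At 1000 peaks the order turned, with 24.55% and 11.1% shared with NKX2-1 by PRDM16 replicates 1 and 2, below the 27.6% and 23.3% that they shared with PRDM3. Over H3K4me3 the pairs of PRDM16 replicate 1 and replicate 2 with PRDM3 shared 70.1% and 58.8%, and the PRDM16 pair shared 66.5%. Outside H3K4me3 the values were 37.3%, 37.8% and 39.7%.

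Joining all overlapping peaks of the 3 lists gave 35910 regions. All 3 libraries covered 7134 of them (19.9%). A single library covered 6359 for PRDM16 replicate 1, 7257 for PRDM16 replicate 2 and 6676 for PRDM3. The remaining regions were 3129 in both PRDM16 libraries only, 3227 in replicate 1 and PRDM3, and 2128 in replicate 2 and PRDM3. PRDM3 therefore stood alone about as often as either PRDM16 library did.

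In the regions common to all 3 libraries, the order of strength was only loosely shared. Spearman's correlation of the ranks was 0.38 between PRDM16 replicate 1 and PRDM3 and 0.21 between replicate 2 and PRDM3, against 0.15 between the PRDM16 libraries (n = 7134 regions, which share their cells' open chromatin and the same regions in each pair). Summits lay a median of 100 bases apart for each PRDM16 library with PRDM3, and 78 bases apart for the PRDM16 pair. These regions were joined from overlapping peaks, which itself limits how far apart the summits can lie, and no chance distance was computed.

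The highest-ranked common region lay inside Frrs1, a ferric-chelate reductase gene, at chr3:116882314-116883080. Its fold was 26.9 and 32.1 in the PRDM16 libraries, against 25.1 in PRDM3. A second lay inside Astn2, which encodes a neuronal membrane protein, at chr4:65912109-65913546, with 26.6 and 25.1 in PRDM16, against 27.8 in PRDM3. The third lay at chr12:40888089-40888992, between genes, with 25.8 and 17.0 in PRDM16, against 15.6 in PRDM3. All 3 also had a peak in NKX2-1 replicate 1, with folds of 20.9, 9.94 and 8.14. No list of regions prone to artefactual signal was applied here.

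The regions without the other protein differed between the 2 classes, which are set on equal terms further below. PRDM16 regions without PRDM3 kept much of the promoter mark: 48.0% (46.4 to 49.7) lay over H3K4me3, against 57.4% of PRDM16 regions with PRDM3. PRDM3 peaks without PRDM16 lay over H3K4me3 in 19.6% (18.7 to 20.6), against 57.04% of PRDM3 peaks with PRDM16. NKX2-1 followed the same pattern. Of PRDM16 regions without PRDM3, 50.1% lay over NKX2-1 regions, against 73.5% with PRDM3, while 13.4% of PRDM3 peaks without PRDM16 did, against 72.0% with PRDM16. Positions moved in the same way: 38.1% of PRDM16 regions without PRDM3 and 14.1% of PRDM3 peaks without PRDM16 lay within 1 kb of a gene start. Each single H3K4me3 and NKX2-1 library gave this order. Over H3K4me3 replicates 1, 2 and 3 lay 53.0%, 48.4% and 46.0% of PRDM16 regions without PRDM3, against 22.9%, 19.7% and 18.5% of PRDM3 peaks without PRDM16. Over the NKX2-1 replicates lay 83.0%, 37.8% and 42.2%, against 34.5%, 10.3% and 13.6%.

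**Figure D2:**
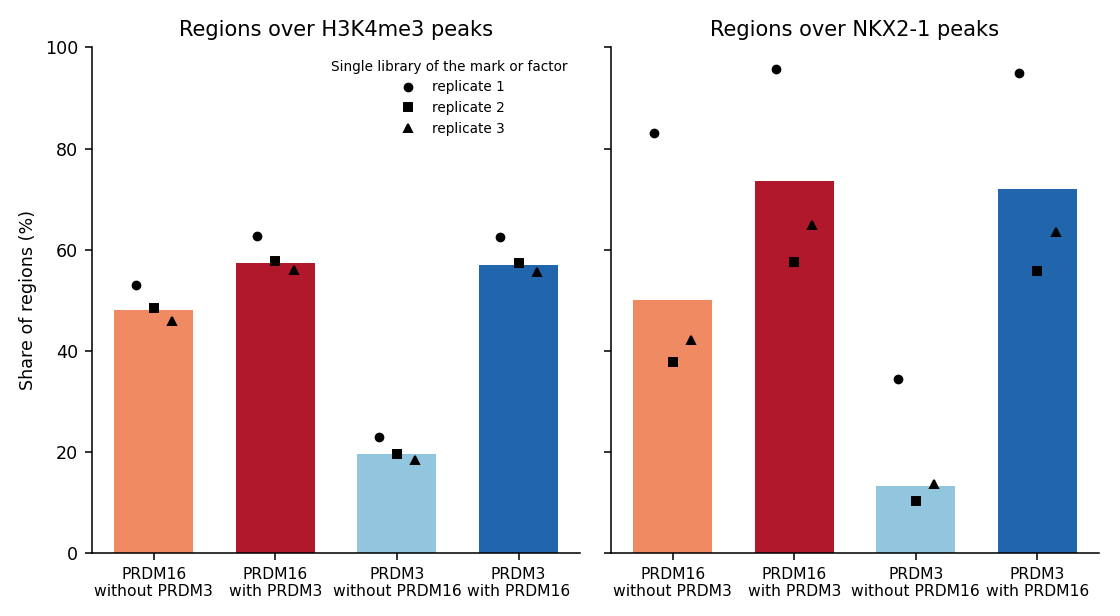
Share of regions over H3K4me3 (left) and NKX2-1 (right) for PRDM16 regions and PRDM3 peaks without and with the other protein. Bars use stretches covered in at least 2 of 3 libraries of the mark or factor, and points give each of its libraries. The bar for PRDM3 without PRDM16 is the lowest in both panels, at 19.6% and 13.4%. PRDM16 regions needed 2 libraries and PRDM3 peaks 1.

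The highest-ranked PRDM16 region without PRDM3 lay inside Pik3c2a, which encodes a lipid kinase of endocytosis, at chr7:116443132-116445131. Its fold was 18.7 and 12.2 in PRDM16, against 2.55 in PRDM3, and all 3 H3K4me3 libraries had a peak there. The next was the Slc17a7 site described below, and the third lay inside Gng7, a G-protein gamma subunit gene, at chr10:80960909-80961653 with 16.7 and 14.2 in PRDM16, against 3.13 in PRDM3. The PRDM3 peak without PRDM16 of highest rank lay at chr3:45204175-45204952, 173835 bases from the start of Pcdh10, a protocadherin gene. Its fold was 5.02 and 3.36 in PRDM16, against 10.2 in PRDM3. After the Synb site described below came a peak inside Phf19, which encodes a Polycomb-associated protein, at chr2:34914284-34914833, with 5.02 and 2.94 in PRDM16, against 9.50 in PRDM3. At each of the regions given here with values, the other protein had a peak below the 20000 highest.

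PRDM16 regions needed 2 libraries and PRDM3 peaks needed 1, so the classes were also set on equal terms. Peaks found in 1 library and in neither of the others numbered 6360 and 7258 for PRDM16, against 6677 for PRDM3. Of these, 26.1% and 17.9% lay over H3K4me3 for PRDM16 replicates 1 and 2, against 19.6% for PRDM3. On equal terms the PRDM3 share of H3K4me3 was therefore between those of the PRDM16 libraries. Within 1 kb of a gene start lay 22.3% and 15.2% for PRDM16, against 14.1% for PRDM3, so PRDM3 was close to replicate 2. For NKX2-1 the shares were 24.6% (23.5 to 25.6) and 20.2% (19.3 to 21.1) for PRDM16, against 13.4% (12.6 to 14.2) for PRDM3. With windows of 401 bases around each summit they were 21.9% and 17.99% for PRDM16, against 12.8% for PRDM3. The windows remove the difference in peak width from the overlap with NKX2-1, but the peaks were still chosen at full width. The lower NKX2-1 share of PRDM3-only peaks held in each NKX2-1 library. Over NKX2-1 replicate 1 lay 60.1% and 50.7% of the PRDM16 peaks, against 34.5% of the PRDM3 peaks, and over replicate 2 lay 19.4% and 16.8%, against 10.3%. Over replicate 3 lay 23.5% and 20.3%, against 13.6%. The PRDM3-only peaks were also the weakest of the 3 sets, with a median fold of 6.45 and 5.10 in PRDM16, against 4.07 in PRDM3, and the part of peak strength in this difference was not tested between libraries.

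The contrast was also read within groups of like rank. Among the 4000 highest PRDM3 peaks, 202 overlapped neither PRDM16 list, and 32.2% of these lay over H3K4me3 and 36.1% over NKX2-1. The 2828 of the same rank group that lay over PRDM16 regions had 54.7% and 80.6%. In the lowest group of 4000, the 1999 peaks without PRDM16 had 19.2% and 10.6%, and the 769 with PRDM16 had 59.7% and 60.5%. In the PRDM16 lists the H3K4me3 contrast was smaller than in PRDM3 in every rank group, and depended on the library. These sizes are not on equal terms. PRDM16 peaks without PRDM3 had to lie over both PRDM16 libraries, while PRDM3 peaks without PRDM16 came from 1 library. PRDM3 peaks over a PRDM16 peak but no region were in neither set. The wider PRDM3 gap therefore cannot be read as a difference between the proteins. Among the 4000 highest peaks of replicate 1, 58.0% of those in regions without PRDM3 lay over H3K4me3, against 71.1% of those in regions with PRDM3. In its other groups, from high to low rank, the values without and with PRDM3 were 56.3% and 59.2%, 48.6% and 48.5%, 46.8% and 48.2%, and 36.6% and 37.8%. In replicate 2 the values were 48.3% and 48.6% in its highest group, but 47.1% and 66.7% in its lowest group. NKX2-1 was lower without PRDM3 in all 5 rank groups of both PRDM16 libraries, for example 64.7% against 87.4% among the 4000 highest of replicate 1.

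**Figure D3:**
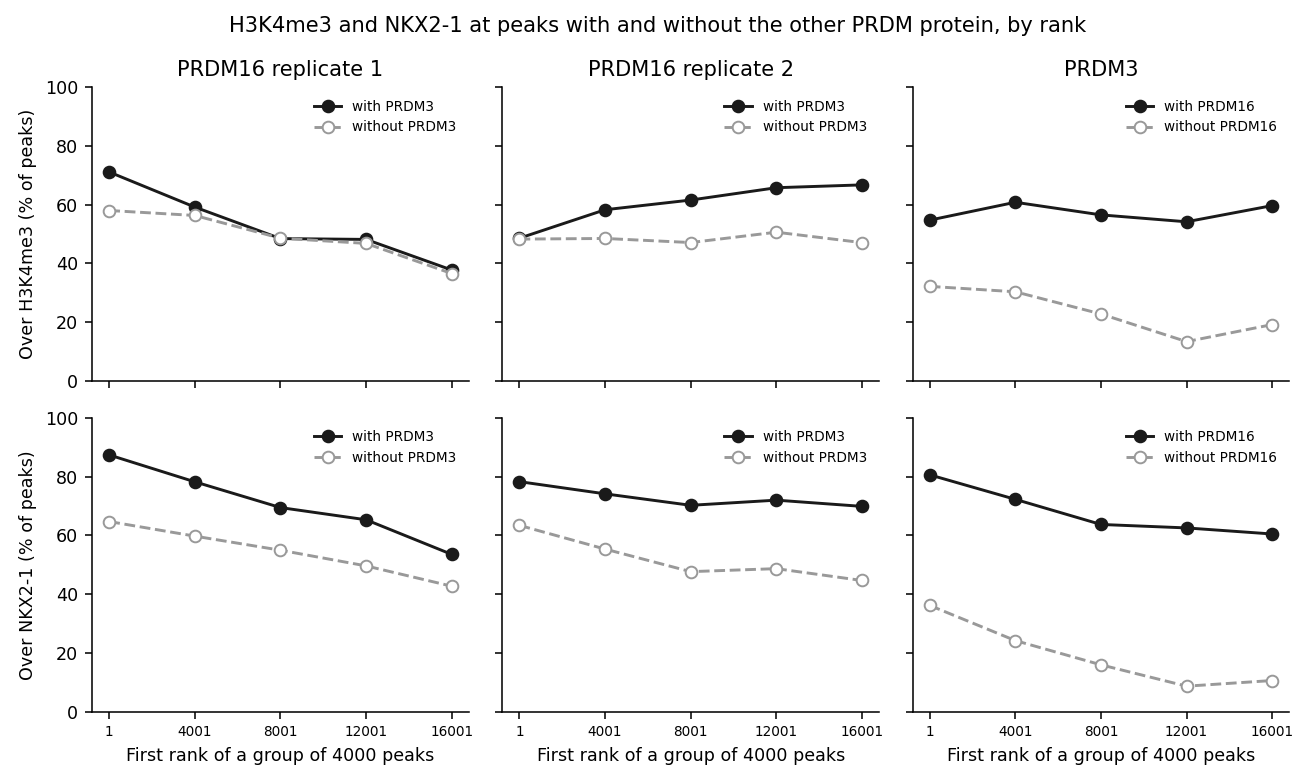
Share of peaks over H3K4me3 (upper row) and NKX2-1 (lower row) in groups of 4000 peaks by rank, for each PRDM library, split into peaks with the other PRDM protein (filled) and without it (open). The widest gaps are in the PRDM3 column, for example 80.6% with PRDM16 and 36.1% without it over NKX2-1 in the highest group. That column is not on equal terms with the others, since its peaks without PRDM16 rest on 1 library.

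Taken as whole lists of 20000, the paralogs were alike in where they lay. Within 1 kb of a gene start were 37.4% and 29.8% of PRDM16 peaks, against 31.9% of PRDM3 peaks. The mean difference of 1.71 percentage points was smaller than the SD of 5.37 between the PRDM16 libraries. Over H3K4me3 lay 46.8% and 38.3%, against 42.1%, a difference of 0.505 points with an SD of 6.03. Over NKX2-1 lay 53.7% and 47.1%, against 46.1%, a difference of 4.33 points with an SD of 4.66. PRDM3 was thus between the PRDM16 libraries for the first 2 measures and just below both for NKX2-1. Without PRDM16 replicate 1 the differences were −2.085, −3.76 and 1.03 points, and without replicate 2 they were 5.505, 4.77 and 7.625 points. They also turned negative when lists of unequal length were used. PRDM3's share of peaks per chromosome lay between those of the PRDM16 libraries on 16 of 19 chromosomes.

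Peaks were linked to the protein-coding gene with the nearest start within 50 kb. Of 20665 genes tested, 10131 (49.0%) and 8703 (42.1%) were linked to a PRDM16 peak in replicates 1 and 2, against 8998 (43.5%) to a PRDM3 peak. All 3 libraries were linked to 5540 genes (26.8%). Among these, ranks differed by a factor of less than 2 for 48.6% of genes between PRDM16 replicate 1 and PRDM3 and for 44.1% between replicate 2 and PRDM3, against 41.6% between the PRDM16 libraries.

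Both proteins had peaks at their own loci and at each other's. Mecom, which encodes PRDM3, had best ranks of 615 and 591 in PRDM16, against 580 in PRDM3, with 8 and 8 linked PRDM16 peaks and 11 PRDM3 peaks. Its leading site, chr3:30503585-30505353 inside the gene, had folds of 18.3 and 9.67 in PRDM16, against 9.54 in PRDM3. Prdm16 had ranks of 956 and 1572 in PRDM16, against 916 in PRDM3, and its leading site at chr4:154634879-154638300 lay 284 bases from a start inside the gene. Nkx2-1, the gene that specifies lung epithelium, had ranks of 5323 and 12390 in PRDM16, against 5039 in PRDM3. It had 3 and 4 linked PRDM16 peaks, against 12 PRDM3 peaks. Counts of linked peaks were not adjusted for peak width, a median of 973 and 806 bases in PRDM16, against 530 in PRDM3. The 12 genes ranked best in all 3 libraries included Tnrc6b, a factor of microRNA silencing, with ranks of 221 and 112 in PRDM16, against 205 in PRDM3. Fbxl19, which binds unmethylated CpG DNA, had 113 and 38, against 251. Mfsd2a, a transporter of lysophosphatidylcholine with docosahexaenoic acid, had 255 and 272, against 28. Piezo1, a stretch-activated channel, had 272 and 174, against 338, and Myh10, a non-muscle myosin, had 193 and 409, against 161. The other 7 were Frrs1, Scgb2a2, Pisd, Sh3bp4, Slc1a2, Pkd2l1 and Pxn. A gene's rank is that of its best linked peak in each library, which can lie at different sites. For Tnrc6b, Fbxl19, Mfsd2a and Myh10 the leading site of PRDM16 replicate 1 held the best fold of every library. At that of Piezo1 the folds were 22.5 and 7.32 in PRDM16, against 5.05 in PRDM3. Its best linked folds in replicate 2 and PRDM3, 15.6 and 10.6, lay elsewhere. At that of Sh3bp4 the replicate 2 fold was 4.43, and the best linked fold of 20.2 lay elsewhere. That of Pxn had 5.09 in replicate 2 and no PRDM3 peak, and the best linked folds of 13.4 and 12.6 lay elsewhere.

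A gene was called PRDM16-favoured when it had rank 10000 or better in both PRDM16 libraries and no linked peak among the 20000 of PRDM3, and PRDM3-favoured when the reverse held. There were 374 PRDM16-favoured genes (1.81% of those tested) and 344 PRDM3-favoured genes (1.66%). The counts are not comparable, since the first asks for 2 libraries and the second for absence from 2. Without PRDM16 replicate 1 they were 1098 and 1245, and without replicate 2 they were 1322 and 703. Many of these calls came from links, not from sites. The shared promoter of Ncapd2 and Mrpl51, genes of a condensin subunit and of a mitochondrial ribosomal protein, shows this. Its peak at chr6:125191173-125192518 had folds of 13.8 and 11.9 in PRDM16, against 9.39 in PRDM3. The PRDM16 peaks were nearer to the start of Ncapd2 and the PRDM3 peak to that of Mrpl51, so a single site made 1 gene PRDM16-favoured and its neighbour PRDM3-favoured. Of the 12 highest-ranked genes in each direction, 8 PRDM16-favoured and 11 PRDM3-favoured genes failed a check of the site itself, so that their leading peaks lay over peaks of the other protein or, for PRDM16, not over each other. On the PRDM16 side these were Chp1, Etfdh, Aqp1, Hdgfl2, Pdcd10, Ncapd2, Btnl10 and Hps1. On the PRDM3 side they were Foxh1, Primpol, Gmpr2, Rad1, Usb1, Mrpl51, Hagh, Cstf1, Zfc3h1, LOC115489044 and Il4i1b.

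That check, added after the values were seen, kept PRDM16-favoured genes whose leading peaks in both libraries overlapped each other and no PRDM3 peak, and PRDM3-favoured genes whose leading peak overlapped no PRDM16 peak, within the lists of 20000. It left 246 genes for PRDM16 (1.19%) and 265 for PRDM3 (1.28%). Of the leading sites of the 246, 74.4% lay within 1 kb of a start, 80.9% over H3K4me3 and 78.0% over NKX2-1. Of those of the 265, 55.8% lay within 1 kb, 55.8% over H3K4me3 and 41.5% over NKX2-1. The promoter contrast came with the check. Before it, 63.1% of the 374 PRDM16-favoured and 65.7% of the 344 PRDM3-favoured leading sites lay within 1 kb, 68.2% and 66.0% over H3K4me3, and 67.4% and 54.1% over NKX2-1. For the 5540 genes linked in all 3 libraries, 57.8% of the leading PRDM16 replicate 1 peaks and 52.0% of the leading PRDM3 peaks lay within 1 kb. Of the same peaks, 69.4% and 63.8% lay over H3K4me3, and 75.3% and 69.3% over NKX2-1. In no linked peak of the whole opposite list were 62 of the 374 PRDM16-favoured and 39 of the 344 PRDM3-favoured genes.

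The 12 highest-ranked PRDM16-favoured genes that passed the check were led by Slc17a7, a vesicular glutamate transporter. Its site at chr7:45161562-45162811, outside the gene and 1735 bases from its start, had folds of 16.8 and 12.5 in PRDM16 and no peak in the whole PRDM3 list. Fxr2, an RNA-binding protein related to FMRP, had 17.7 and 9.45 in PRDM16, against 3.29 in PRDM3 at chr11:69632070-69633553. Baz1b, a subunit of a chromatin remodeller, had 14.4 and 9.05, against 3.21 at chr5:135186308-135187758. Both of these sites overlap the gene's start, and their promoter sequences are given above. Ing3, a subunit of the NuA4 acetyltransferase that reads H3K4me3, had 12.9 and 11.7, against 3.22. Nrm, a protein of the inner nuclear membrane, had 13.1 and 8.94, and Pkn3, a protein kinase, had 14.1 and 8.88, both with no PRDM3 peak. Cnksr1, a scaffold of Ras signalling, had 16.7 and 8.40, against 3.53, and Tpgs1, a subunit of tubulin polyglutamylase, had 11.8 and 9.45, against 3.02. Pdik1l, Zc3h10, 9230112D13Rik and Uts2 completed the set. For these 12 genes the fold at the site ranged from 11.8 to 21.7 and from 8.29 to 12.5 in the PRDM16 libraries. In PRDM3, 9 of the 12 had a weaker peak, with folds of 2.43 to 3.53, so most were places of lower PRDM3 rank and not places with no PRDM3 peak. At least 2 H3K4me3 libraries had a peak at 10 of the 12 sites, and at least 2 NKX2-1 libraries at 12.

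The PRDM3-favoured genes that passed were led by Synb, which encodes the placental fusion protein syncytin B. Its site at chr14:69294894-69295406 had folds of 4.90 and 2.93 in PRDM16, against 9.81 in PRDM3. Abca1, which exports cholesterol to lipoproteins, had 4.90 and 4.08 in PRDM16, against 7.47 in PRDM3 at its promoter (chr4:53159211-53160155), so the PRDM16 peaks there fell just short of the last values in their lists. Rps13, a protein of the small ribosomal subunit, had 4.90 and 2.93, against 7.36 at chr7:116333801-116334540. Ap2b1, an adaptor subunit of clathrin coats, had 3.94 and 3.31, against 7.04. Dnajc9, a chaperone of histones, had 3.77 and 3.59, against 8.32 at a site 9945 bases from its start. Rgs5, a regulator of G-protein signalling found in pericytes, had no peak in replicate 1 and 3.26 in replicate 2, against 7.47 at a site inside the gene, 38342 bases from its start. Blmh, a cysteine protease, had 3.58 in replicate 1 and no peak in replicate 2, against 7.47 in PRDM3. The others were 1700042G07Rik, Ccnt2, Aard, Jpt1 and Spef1. Across the 12 genes the PRDM3 folds were 6.99 to 9.81. A weaker PRDM16 peak stood at 9 of the 12 sites in replicate 1, with folds of 2.63 to 4.90. In replicate 2 it stood at 9 of the 12, with folds of 2.93 to 4.08. Each site had such a peak in at least 1 PRDM16 library, so these too were places of lower PRDM16 rank. At least 2 H3K4me3 libraries had a peak at 7 of the 12 sites, and at least 2 NKX2-1 libraries at 5.

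**Figure D4:**
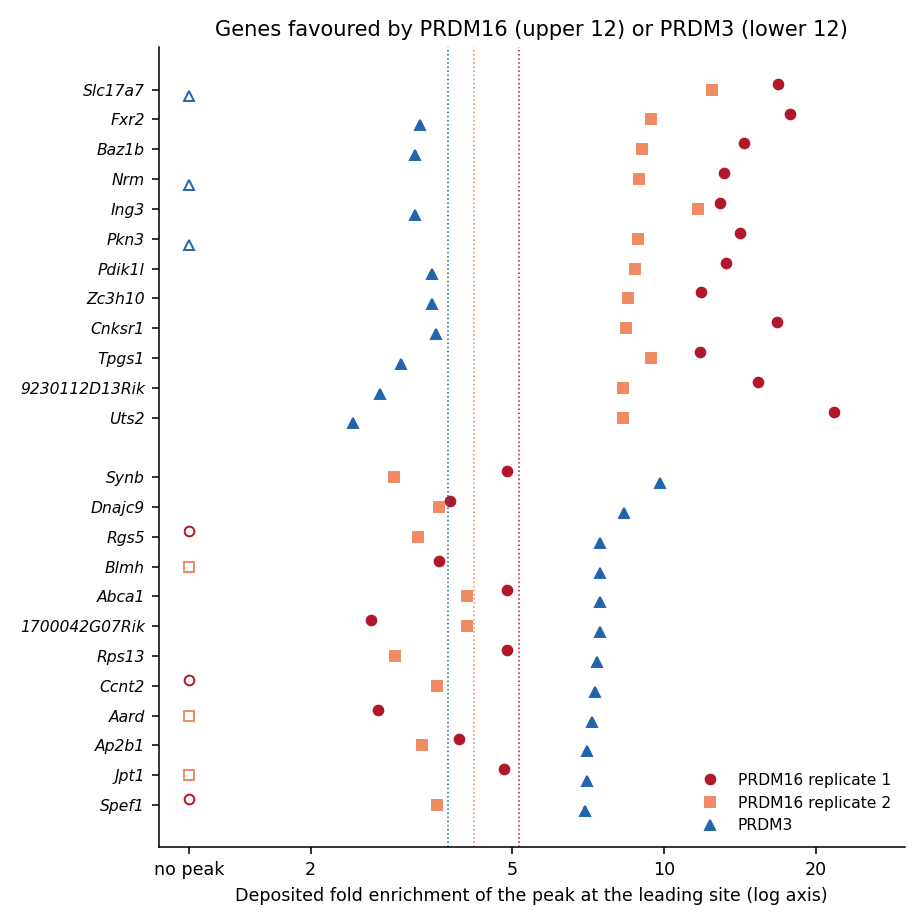
Deposited fold enrichment (horizontal axis, log scale) at the leading site of the 12 highest-ranked PRDM16-favoured and 12 PRDM3-favoured genes that passed the site check, in each library. Open symbols mark no peak in the whole list, and dotted lines mark the fold at rank 20000 in each library (5.16, 4.20 and 3.73). Weaker PRDM3 peaks are present at 9 of the 12 PRDM16-favoured sites. Weaker peaks of each PRDM16 library are present at 9 of the 12 PRDM3-favoured sites, and every such site has at least 1.

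Gene lists of cell types and pathways, 24 in all with 469 entries matched, were described by how many members were linked in each library. Across all genes the shares were 49.0% and 42.1% for PRDM16, against 43.5% for PRDM3. PRDM3 lay within the range of the PRDM16 libraries, ends included, in 13 lists, below it in 7 and above it in 4, by at most 2 genes in each case. The PRDM16 libraries themselves differed by up to 7 genes of a list. Of the 455 different genes, 7 were PRDM16-favoured (1.54%) and 8 PRDM3-favoured (1.76%), near the shares over all genes.

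Genes of the alveolar epithelium were linked almost throughout. Of 24 genes of alveolar type 1 (AT1) cells, the thin cells of gas exchange, 22 and 23 were linked in PRDM16, against 24 in PRDM3. Gprc5a, a retinoic acid-induced receptor, had ranks of 505 and 352 in PRDM16, against 165 in PRDM3, and Scnn1g, a subunit of the epithelial sodium channel, had 218 and 102, against 543. Hopx, a homeodomain cofactor of AT1 cells, had 2562 and 95, against 441. The AT1 gene linked by PRDM3 alone was Ager, which encodes the receptor RAGE, with rank 5089. Its site at chr17:34595742-34596164, 1897 bases from its start, had a PRDM3 fold of 5.64, and neither whole PRDM16 list had a peak there. Of 22 genes of alveolar type 2 (AT2) cells, which make surfactant, 19 and 19 were linked in PRDM16, against 20 in PRDM3. Lpcat1, which makes surfactant phosphatidylcholine, had ranks of 253 and 631, against 14, and the protease gene Ctsh had 668 and 499, against 16. Sftpb, a surfactant protein, had 650 and 461, against 715, and Sftpc had 8141 and 17730, against 7115. In the list of surfactant lipid synthesis, 21 and 19 of 25 genes were linked in PRDM16, against 20 in PRDM3. It held a favoured gene in each direction, Abca1 for PRDM3 and Scap for PRDM16. Scap, which escorts SREBP to the Golgi, had a promoter site with folds of 7.88 and 7.15 in PRDM16 and no PRDM3 peak.

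Signalling lists were covered alike. All or nearly all of 25 genes of TGF-beta and BMP signalling were linked, 24 and 25 in PRDM16, against 25 in PRDM3, and Id2, Id1 and Smad7, which respond to these signals, had best ranks of 2376 or better in every library. Of 24 Wnt genes 21 and 24 were linked, against 21, and of 20 Notch genes 19 and 14, against 17. PRDM16-favoured members were Axin1, a scaffold of beta-catenin destruction, with ranks of 2287 and 9038, Dkk3, a secreted protein of the Dickkopf family, with 7781 and 4148, and Hey1, a Notch-induced repressor, with 6555 and 8136. Dkk3 did not pass the site check. At the Axin1 site PRDM3 had a fold of 3.69, just under the last value of its list. Hes1, another Notch-induced repressor, had ranks of 1238 and 191 in PRDM16, against 216 in PRDM3.

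Other lists were tied to the known roles of the paralogs. Of 15 brown fat genes, 12 and 11 were linked in PRDM16, against 9 in PRDM3, and of 18 genes of blood stem cells and EVI1 targets 12 and 11, against 12. Zfp516, a zinc-finger partner of PRDM16 in brown fat, had ranks of 14 and 1290, against 170. Among 17 corepressor genes, 14 and 7 were linked in PRDM16, against 14 in PRDM3, so the gap lay between the PRDM16 libraries. Hdac2, a histone deacetylase, was PRDM3-favoured with rank 7971 and a PRDM3 fold of 4.86, and the PRDM16 folds at its promoter were 4.82 and 2.40. Trim28, a corepressor of zinc-finger proteins, was also PRDM3-favoured, but its site had folds of 14.0 and 3.84 in PRDM16, against 5.35 in PRDM3, so the call rested on the link. Of 15 PRDM family genes 12 and 13 were linked, against 11.

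The remaining lists, of other cells and of housekeeping functions, varied widely in how many genes were linked. Of 20 immune and blood genes 5 and 4 were linked in PRDM16, against 4 in PRDM3, and of 19 Hox genes 6 and 10, against 4. Of 18 endothelial genes 6 and 8 were linked, against 10, and of 20 mesenchymal genes 7 and 7, against 9. Fewer cells of a type and fewer bound sites per cell cannot be told apart in such pooled cells. Dcn, which encodes the matrix protein decorin, was PRDM3-favoured through a site 42849 bases from its start with a fold of 4.78. Of 18 neuronal genes 11 and 6 were linked, against 6, and Slc17a7 and Camk2a, a neuronal kinase, were PRDM16-favoured, the second without passing the site check. Of the airway secretory list 8 and 7 of 15 genes were linked, against 7, and Muc5ac, a gel-forming mucin, was PRDM3-favoured with a distant site of fold 4.75. Of 24 ribosomal protein genes 18 and 14 were linked, against 12, and Rpl4, PRDM3-favoured by its link, had 11.6 in PRDM16 replicate 1 and no peak in replicate 2, against 6.40 in PRDM3 at the same site. All 24 carried H3K4me3 at an annotated start or end. Of 18 housekeeping genes 14 and 12 were linked, against 12. Tfrc, the transferrin receptor, was PRDM16-favoured with 8.08 and 8.17 in PRDM16, against 3.48 in PRDM3, and Psmb2, a proteasome subunit, was PRDM3-favoured with 2.63 in PRDM16 replicate 1 and no peak in replicate 2, against 4.78 in PRDM3.

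**Figure D5:**
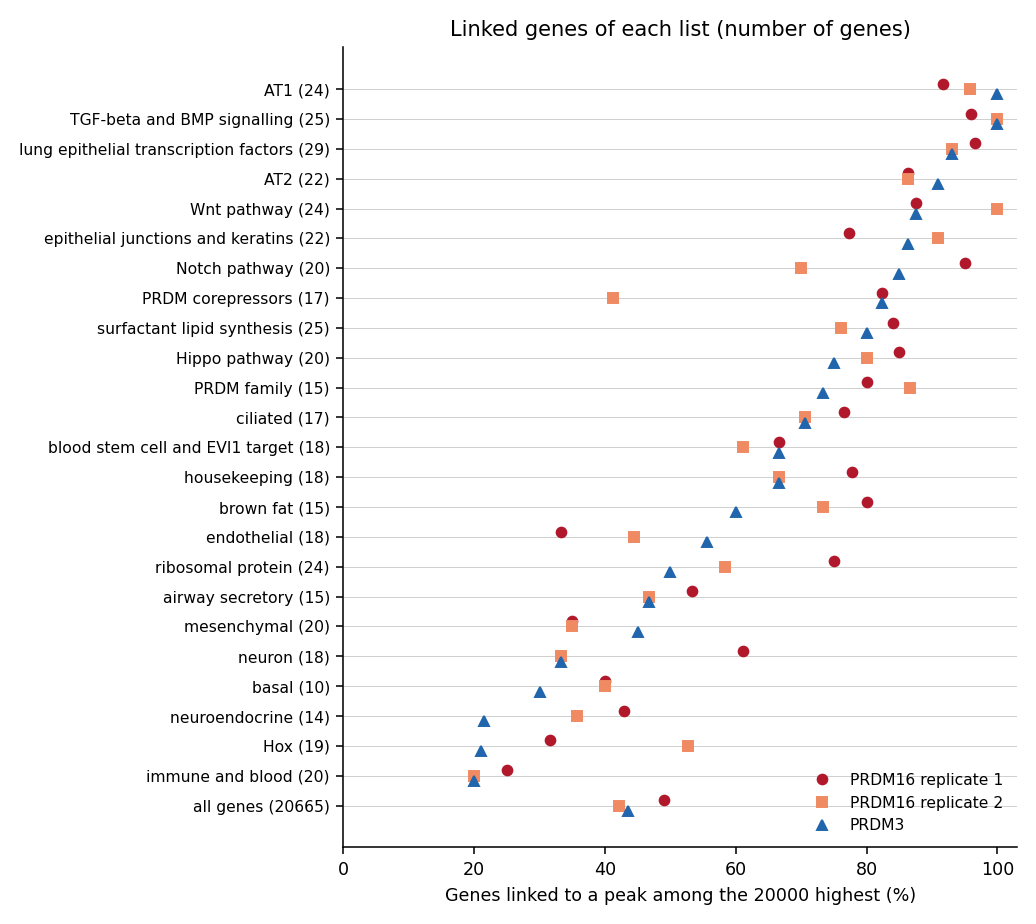
Percent of each list's genes linked to a peak among the 20000 highest (horizontal axis) in PRDM16 replicate 1, PRDM16 replicate 2 and PRDM3, with the number of genes in brackets and all genes at the bottom. AT1 genes stand at 91.7%, 95.8% and 100% and immune and blood genes at 25%, 20% and 20%. PRDM3 lies above both PRDM16 libraries in 4 lists and below both in 7.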

How the data were processed

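Peaks were deposited as 1 list per sample, with no pooling recorded. Per the submitters' processing notes the tools were Trimmomatic, Bowtie2, MACS2 and HOMER, with mm10 as the build. Their versions, settings and any control library are not given in the sources used here. Each list carries the authors' deposited score, fold enrichment (a ratio of signal to background), −log10 p and −log10 q values, and the position of the summit. The score was not used here. Fold enrichment ranks peaks within a list and its scale differs between libraries. Read depth is unknown from the deposited lists.

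The members and gene lists were chosen with earlier results of these data known. Peaks of chromosomes 1 to 19 were ranked by fold, ties by −log10 p, and the 20000 highest kept. H3K4me3 and NKX2-1 regions were stretches of at least 20 bases covered in at least 2 of 3 libraries. Gene starts came from RefSeq (GRCm38.p6) for 16457 of 20665 genes, and for 4208 genes without a listed strand both gene ends were used. Peaks were linked by their midpoint. Shares carry Wilson 95% intervals. The 12 highest-ranked favoured genes per direction, the 12 genes with the best worst rank, and per gene list up to 3 members and every favoured one were named. The code for overlaps and gene calls was checked on simulated lists with known answers. Alternatives changed list length, q, ranking, chromosomes, overlap, links and libraries, and those with summit windows, either end of every gene or the site check were chosen after seeing the data. Python 3.11.15, numpy 2.4.6 and pandas 2.3.3 were used.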

Additional observations from a re-analysis of the deposited data

How the results depend on the processing

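Read depth is unknown and PRDM3 has a single library, so no result has a test. The share of PRDM16 regions over PRDM3, 67.0%, became 52.4% with all peaks, 65.6% with 10000, 39.1% at −log10 q of at least 5, 69.2% by −log10 p, 64.4% at 50% overlap and 59.8% with summit windows. With a single PRDM16 library it was 46.6% to 52.1%. The share of PRDM3 peaks over PRDM16 regions, 36.5%, became in the same order 40.1%, 28.9%, 65.6%, 40.0%, 34.8% and 27.5%, was 35.6% with chromosomes X and Y, and was 48.1% to 55.1% with a single PRDM16 library. The cause of these moves was not tested. The pair overlap difference became −3.895 points with 10000 peaks. With all peaks, and at −log10 q of at least 5, the difference in gene start share became −6.97 and −5.70 points, in H3K4me3 share −10.6 and −8.25 points, and in NKX2-1 share −9.27 and −16.2 points. Leaving out a PRDM16 library gave −2.085 to 5.505, −3.76 to 4.77 and 1.03 to 7.625 points. PRDM16-favoured genes numbered 62 with all peaks, 929 with 10000, 1689 at the q limit, 210 by a rank ratio of 4, 246 after the site check and 1098 to 1322 with a single PRDM16 library. PRDM3-favoured genes numbered 39, 1055, 132 and 569 under the first 4 of these and 703 to 1245 with a single PRDM16 library. The other alternatives moved shares and differences by less than the spread, and counts by less than 1.5 times. The pair overlap difference has no value without a PRDM16 library. No paired analysis was possible because PRDM16 and PRDM3 share only replicate number 1.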
